A study of Mus musculus with 12 samples.

Results

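The plasminogen activator and blood coagulation genes of dendritic cells were followed through lipopolysaccharide (LPS) stimulation and JSH-23 pre-treatment. They comprised 7 genes, Plau, Plaur, Serpinb2, F3, F10, Procr and Thbs1, of 55335 genes listed. They were chosen by symbol, and Serpinb2 because it was among the largest falls in WTL + JSH23 against WTL. Its fall ranked 20 among the 14357 genes that passed the filter on low counts and 13 among the 12299 protein-coding ones. All 7 genes passed the filter.

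RNA-seq was carried out on bone marrow-derived dendritic cells (BMDCs), which are grown from mouse bone marrow with the cytokine GM-CSF. Every group came from C57BL/6 mice that carry the CreER transgene at the Rosa26 locus, a tamoxifen-inducible recombinase expressed in most cell types, together with an intact Ctcf gene. The mice of the study were male and female and 8 to 12 weeks old. After 6 days of culture, with fresh medium every 2 days, floating cells were selected for CD11c with magnetic beads. The sources do not settle whether these cultures received 4-OH-tamoxifen, the inducer used for Ctcf deletion elsewhere in the study.

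The titles gave 4 groups of 3 libraries. WT was left without LPS and WTL received LPS, a component of Gram-negative bacteria, at 100 ng/ml for 3 h. WT + JSH23 and WTL + JSH23 were their counterparts pre-treated for 3 h with 100 µM JSH-23, a small molecule that keeps the NF-κB subunit RelA out of the nucleus. The titles number the libraries without JSH-23 from 4 to 6 and those with it from 1 to 3, and no solvent is given for WT and WTL. The effect of JSH-23, that of its solvent and any difference between these sets of libraries therefore cannot be told apart. The study calls the libraries biological replicates without naming animals, so p-values measure the spread between these libraries.

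Total expected counts per library ran from 24664724 to 34837847, and principal components 1 and 2 of log2 CPM held 55.6% and 22.6% of the variance. Dendritic cell markers were present throughout. The 8 genes listed summed to between 12158 CPM in a WT + JSH23 library and 15936 CPM in a WTL library, led by Cd74. Cd74 alone had group means of 7927 to 9807 CPM, so the sum hides changes of the other markers. Zbtb46 went from 61.4 CPM in WT to 124.6 in WTL, and Ciita from 462 in WT to 255 in WT + JSH23. Both were named after their values were seen. CPM denotes counts scaled to a library size common to all libraries, and TPM, which also corrects for transcript length, is used where levels of different genes are compared. In bulk RNA, fewer cells that express a gene and less RNA per cell cannot be told apart.

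Fibrinolysis dissolves clots through plasmin, a protease that is made from plasminogen by the urokinase Plau and the tissue-type activator Plat. Plaur is the receptor that holds urokinase at the cell surface, and the serpin Serpinb2 inhibits both activators. Coagulation starts when tissue factor, encoded by F3, binds factor VII and activates factor X, encoded by F10, whereas Procr, the endothelial protein C receptor, promotes the anticoagulant protein C pathway. Myeloid cells are known to express several of these genes on activation.

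All positions are on the plus strand of GRCm38 (mm10) from GENCODE M21, and each range spans the whole gene with its exons and introns. In this annotation Plau (ENSMUSG00000021822.3) lies on chromosome 14 from 20836660 to 20843385. Plaur (ENSMUSG00000046223.10) lies on chromosome 7 from 24462484 to 24475968. Serpinb2 (ENSMUSG00000062345.10) lies on chromosome 1 from 107511423 to 107535478. F3 (ENSMUSG00000028128.13) lies on chromosome 3 from 121723537 to 121735048, and F10 (ENSMUSG00000031444.16) on chromosome 8 from 13037308 to 13056676. Procr (ENSMUSG00000027611.12) and Thbs1 (ENSMUSG00000040152.8) both lie on chromosome 2, Procr from 155751117 to 155755471 and Thbs1 from 118111876 to 118127133. None of the 7 had a fractional expected count in any library. Serpinb2 overlaps Serpinb10, which held 1 to 9 counts, and Thbs1 overlaps the antisense lincRNA Gm29233, which held 0 to 3 counts.

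Windows from 250 bases before to 50 bases after the start site were available from RefSeq (GRCm38.p6) for 5 of the 7 genes, all but Plau and Thbs1. The AP-1 motif TGANTCA, read on both strands, was in the windows of 4 of these 5 genes, Serpinb2, Plaur, F3 and Procr, and in 7.81% of all 32851 windows. A gene can have several windows, as Serpinb2 had, so counts of genes and shares of windows, here and below, are unlike measures. The 4 stretches upstream of the start are printed because they hold this motif. They come from chr1:107511173-107511422, chr7:24462233-24462482, chr3:121723287-121723536 and chr2:155750967-155751116, in the order shown and on the plus strand. Capitals mark the AP-1 motif.
Serpinb2: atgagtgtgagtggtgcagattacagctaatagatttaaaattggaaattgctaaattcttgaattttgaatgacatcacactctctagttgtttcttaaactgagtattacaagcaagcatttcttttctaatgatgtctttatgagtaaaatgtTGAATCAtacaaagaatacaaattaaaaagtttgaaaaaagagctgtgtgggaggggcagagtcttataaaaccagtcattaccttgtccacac
Plaur: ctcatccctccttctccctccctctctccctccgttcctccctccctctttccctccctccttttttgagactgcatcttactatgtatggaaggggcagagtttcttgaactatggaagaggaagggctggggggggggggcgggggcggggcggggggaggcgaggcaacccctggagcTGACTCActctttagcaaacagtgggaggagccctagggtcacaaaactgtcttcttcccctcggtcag
F3: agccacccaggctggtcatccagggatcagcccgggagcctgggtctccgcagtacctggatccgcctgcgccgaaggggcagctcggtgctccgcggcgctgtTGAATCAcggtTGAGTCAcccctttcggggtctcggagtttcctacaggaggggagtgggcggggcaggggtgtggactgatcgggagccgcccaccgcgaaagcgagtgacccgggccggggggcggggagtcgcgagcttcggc
Procr: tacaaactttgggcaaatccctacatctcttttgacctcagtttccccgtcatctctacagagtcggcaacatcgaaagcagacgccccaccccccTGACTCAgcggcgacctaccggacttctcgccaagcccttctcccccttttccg
The motif began at position -94 of Serpinb2 and -69 of Plaur from the RefSeq start, at -146 and -135 of F3, and at -54 of Procr counted from the GENCODE start. The C/EBP motif TTGCNNAA was in the windows of Serpinb2, Plaur and Procr, 3 of the 5, and in 10.8% of all windows. The Sp1 motif GGGCGG was in those of F3 and Plaur, 2 of the 5, and in 35.7% of all windows. The antioxidant response element core TGACNNNGC was in that of Procr alone among the 5, where it overlaps the AP-1 motif, and in 12.4% of all windows. The NF-κB consensus was in 0 of the 5 windows and in 4.51% of all, and the CRE motif TGACGTCA in 0 of the 5 and in 1.79% of all. The motifs were chosen after these windows had been seen, and a match of letters is no evidence of binding.

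**Figure D1:**
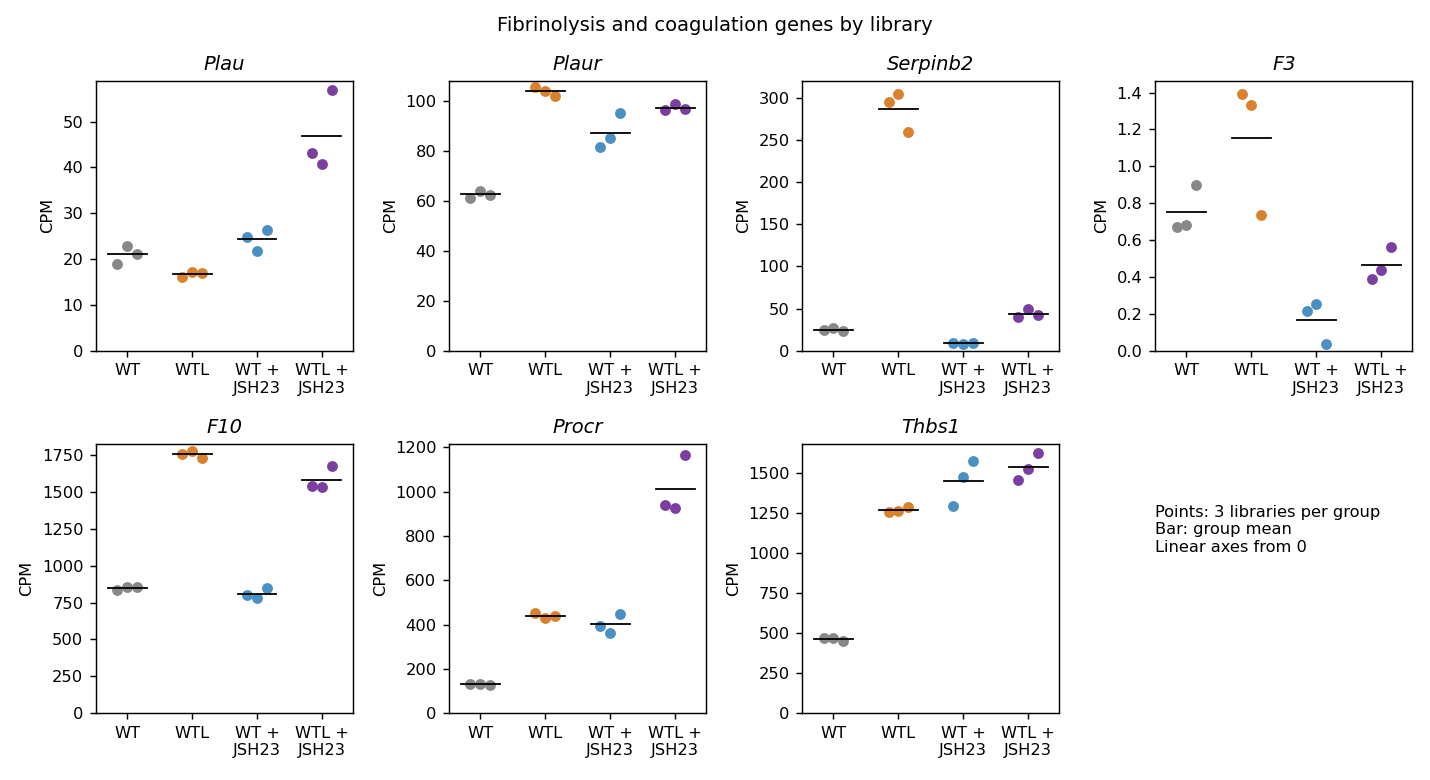
Level of each of the 7 genes in CPM (vertical axis, linear from 0) in the 12 libraries, by group on the horizontal axis, with points for libraries and bars for group means. Serpinb2 stood above 259 CPM only in WTL, whereas Procr and Plau were highest in WTL + JSH23.

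The urokinase gene Plau moved in opposite directions with LPS depending on JSH-23. Its level in the WT libraries was 18.99, 22.9 and 21.2 CPM, and in the WTL libraries 16.0, 17.2 and 16.9 CPM. In the WT + JSH23 libraries it was 24.8, 21.7 and 26.4 CPM, and in the WTL + JSH23 libraries 43.2, 40.7 and 56.8 CPM. The WTL libraries were all below the WT libraries and the WTL + JSH23 libraries all above every other library, whereas WT and WT + JSH23 overlapped. Under LPS alone Plau fell by 0.33 on the log2 scale (SE 0.109, adjusted p = 0.0113), under 2-fold, and without WT replicate 5 the threshold was missed (adjusted p = 0.0672). With JSH-23 it rose by 0.94 (SE 0.0960, adjusted p = 3.55e-08), which is under 2-fold. The difference between these log2 changes, the interaction, was 1.27 (SE 0.145, adjusted p = 3.93e-06). In resting cells the log2 difference of WT + JSH23 from WT was 0.21 (SE 0.101, adjusted p = 0.105). It passed the threshold when only these groups were fitted (adjusted p = 0.0128), without a filter on low counts (0.00769), without WT + JSH23 replicate 2 (0.0478) and without WTL + JSH23 replicate 3 (0.0169).

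Plaur, the urokinase receptor, was lowest in WT and rose with each treatment. It stood at 61.2, 64.1 and 62.3 CPM in WT and at 105.8, 104.0 and 102.1 CPM in WTL. With JSH-23 it stood at 81.7, 85.0 and 95.2 CPM without LPS and at 96.4, 98.9 and 96.6 CPM with LPS. No neighbouring groups overlapped in CPM, in the order WTL, WTL + JSH23, WT + JSH23, WT. The log2 rise with LPS was 0.73 (SE 0.0483, adjusted p = 1.77e-11) without JSH-23 and 0.16 (SE 0.0476, adjusted p = 0.00848) with it. The interaction was -0.58 (SE 0.0678, adjusted p = 5.80e-06), and JSH-23 in resting cells gave a log2 rise of 0.48 (SE 0.0483, adjusted p = 4.41e-08). The rise with LPS after JSH-23 rested on the scaling. It did not pass with upper quartile scaling (log2 0.072, adjusted p = 0.207) or without WT + JSH23 replicate 1 (adjusted p = 0.0729), and in limma on log2(TPM + 1) its sign turned to -0.064 (adjusted p = 0.242). In TPM the 3 groups other than WT had means of 110.6 in WTL, 118.2 in WT + JSH23 and 112.9 in WTL + JSH23, and neighbours in this order of levels overlapped.

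Serpinb2, also called plasminogen activator inhibitor-2, had the largest fold between its highest and lowest group means of the 7 genes. Its level was 25.2, 26.9 and 22.9 CPM in WT and 295.2, 305.1 and 259.3 CPM in WTL. After JSH-23 it was 9.28, 7.85 and 8.68 CPM in WT + JSH23 and 39.5, 49.1 and 41.9 CPM in WTL + JSH23. The 4 groups did not overlap. The log2 fold change of WTL + JSH23 against WTL, which chose this gene, was -2.72 (SE 0.0723). The log2 differences with LPS were 3.52 (SE 0.0754) without JSH-23 and 2.33 (SE 0.0947) with it, a difference of -1.18 (SE 0.126). These values share libraries with the choice of the gene and are given without a test. In libraries that the choice did not use, Serpinb2 fell by 1.54 on the log2 scale (SE 0.0984, adjusted p = 3.91e-11) in WT + JSH23 against WT. A difference between the sets of libraries with and without JSH-23 would enter both contrasts. In that comparison 4 of the 7 genes passed at an adjusted p under 0.05 with more than 2-fold, beside 5.37% of all genes tested. Procr and Thbs1 were higher, beside 2.43% of all genes, and Serpinb2 and F3 lower, beside 2.94%. These counts include Serpinb2, which was chosen for a fall with JSH-23, so the shares over all genes are no fair measure for it. F3, the only other lower gene, had 1 to 7 counts per library in WT + JSH23.

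**Figure D2:**
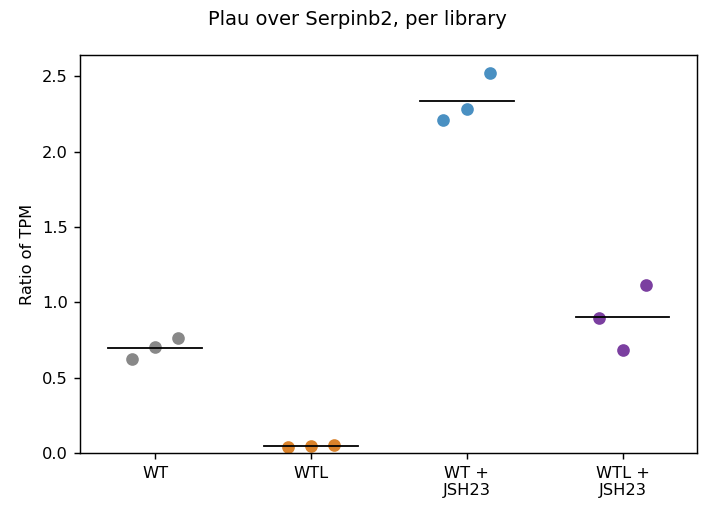
Ratio of Plau to Serpinb2 in TPM per library (vertical axis, linear from 0) by group, with points for libraries and bars for group means. All WTL libraries had the lowest ratios and all WT + JSH23 libraries the highest.

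The urokinase transcript and its inhibitor Serpinb2 were set side by side per length. The ratio of Plau to Serpinb2 in TPM was 0.696 ± 0.0705 in WT and 0.0486 ± 0.00508 in WTL (SD, n = 3). It was 2.34 ± 0.161 in WT + JSH23 and 0.901 ± 0.217 in WTL + JSH23 (SD, n = 3). Serpinb2 transcripts exceeded those of Plau in every WT and WTL library, and the reverse held in every WT + JSH23 library. The ratio was formed after the values had been seen, holds the gene chosen for its fall, and is given without a test. It describes RNA, not protein or activity, and leaves other inhibitors aside.

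F3, encoding tissue factor, was at the edge of detection. Its counts in the files were 22, 24 and 26 in WT and 36, 40 and 16 in WTL, or 0.673, 0.683 and 0.897 CPM and 1.39, 1.33 and 0.737 CPM. In WT + JSH23 there were 7, 7 and 1 counts, or 0.215, 0.253 and 0.0340 CPM, and in WTL + JSH23 11, 11 and 13 counts, or 0.390, 0.438 and 0.562 CPM. WT and WTL overlapped, the JSH-23 groups did not overlap with each other, and both lay below every library without JSH-23. F3 fell by 2.13 on the log2 scale with JSH-23 in resting cells (SE 0.435, adjusted p = 0.000419). With LPS after JSH-23 it rose by 1.43 (SE 0.488, adjusted p = 0.0173), a call lost without WT + JSH23 replicate 3 (adjusted p = 0.0876), the library with 1 count, and without WTL + JSH23 replicate 3 (adjusted p = 0.0548). This call was also lost in limma on log2(TPM + 1), at 0.29 (adjusted p = 0.0722). The log2 difference with LPS alone was 0.65 (SE 0.319, adjusted p = 0.0803). It passed without WTL replicate 6 (adjusted p = 0.0270) and when only WT and WTL were fitted (adjusted p = 0.0432). The interaction was 0.78 (SE 0.584, adjusted p = 0.401), so a different LPS response of F3 was not detectable at this depth.

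F10, encoding factor X, followed LPS with little difference by JSH-23. Its level was 832, 858 and 852 CPM in WT and 1757, 1775 and 1728 CPM in WTL. With JSH-23 it was 802, 781 and 850.2 CPM in WT + JSH23 and 1538, 1533 and 1675 CPM in WTL + JSH23. All 6 LPS libraries were above all 6 libraries without LPS, and WT and WT + JSH23 overlapped. The log2 rise with LPS was 1.05 (SE 0.0403, adjusted p = 1.66e-15) without JSH-23 and 0.96 (SE 0.0402, adjusted p = 1.36e-14) with it. The rise without JSH-23 was under 2-fold with upper quartile scaling (log2 0.97) and in limma on log2(TPM + 1) (log2 0.71). The interaction of -0.09 (SE 0.0564, adjusted p = 0.337) did not pass, and neither did the log2 difference of -0.06 (SE 0.0400, adjusted p = 0.225) in resting cells. F10 was the most abundant of the 7 transcripts per length in each group, with 808 TPM in WT, 1323 in WTL, 772 in WT + JSH23 and 1305 in WTL + JSH23.

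Procr, the receptor of protein C, rose with LPS, rose with JSH-23, and was highest with both. In WT it stood at 130.6, 134.2 and 126.6 CPM, and in WTL at 451.7, 432.2 and 440.2 CPM. In WT + JSH23 it stood at 396.2, 363.1 and 448.3 CPM, and in WTL + JSH23 at 941.2, 924.3 and 1164 CPM. WTL and WT + JSH23 overlapped in CPM, WT lay below and WTL + JSH23 above all others. In TPM the WT + JSH23 libraries, at 489 to 572, all lay above the WTL libraries, at 445 to 469.9. The log2 rise with LPS was 1.76 (SE 0.0745, adjusted p = 9.24e-15) without JSH-23 and 1.33 (SE 0.0717, adjusted p = 1.07e-12) with it, and JSH-23 in resting cells gave a rise of 1.63 (SE 0.0742, adjusted p = 2.19e-13). The interaction of -0.43 (SE 0.102, adjusted p = 0.00509) was lost in limma on log2(TPM + 1), at -0.27 (adjusted p = 0.123).

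Thbs1, encoding thrombospondin 1, a matrix glycoprotein that platelets also release, rose with either treatment but showed little further difference when both were given. It stood at 470.7, 472.8 and 449.6 CPM in WT and at 1259, 1263 and 1289.9 CPM in WTL. After JSH-23 it stood at 1296, 1479 and 1578 CPM in WT + JSH23 and at 1459.6, 1526 and 1625 CPM in WTL + JSH23. Every treated library was above every WT library, and the JSH-23 groups overlapped. The log2 rise was 1.45 with LPS (SE 0.0544, adjusted p = 1.10e-15) and 1.64 with JSH-23 in resting cells (SE 0.0546, adjusted p = 1.63e-15). The log2 difference with LPS after JSH-23 was 0.08 (SE 0.0529, adjusted p = 0.195). It passed without WT + JSH23 replicate 3 (log2 0.15, adjusted p = 0.0223). It also passed with a block for the replicate number in the fit (log2 0.087, adjusted p = 0.0395). Its sign turned with upper quartile scaling, at -0.00157, and in limma on log2(TPM + 1), at -0.13. The interaction was -1.37 (SE 0.0755, adjusted p = 1.49e-10).

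**Figure D3:**
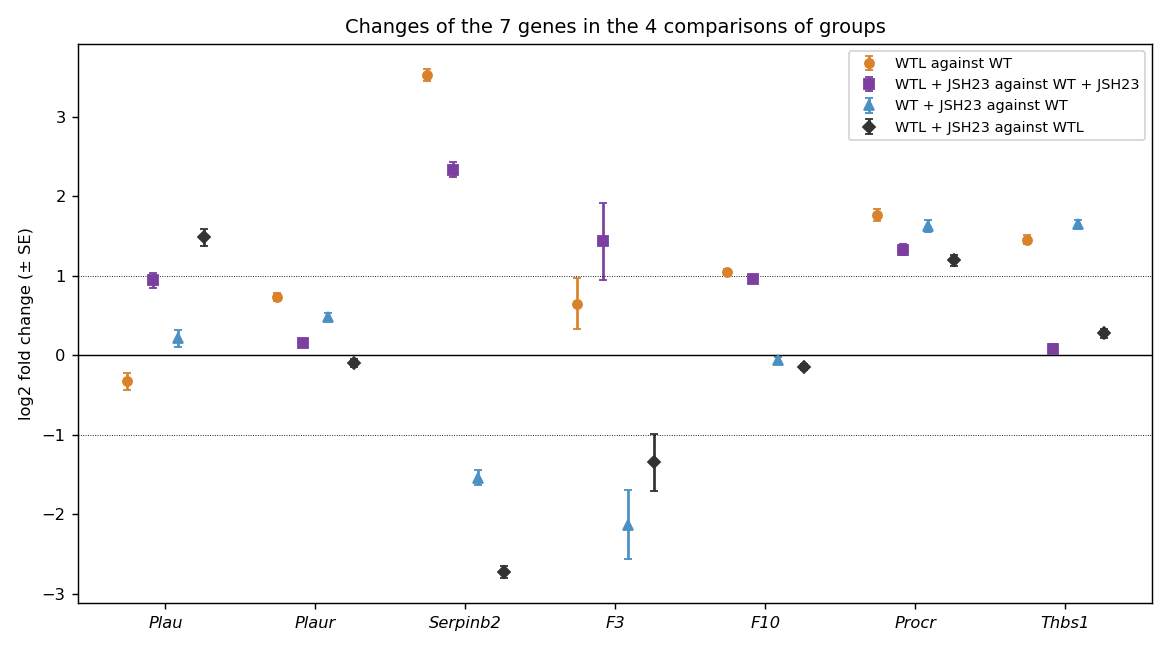
Log2 fold change with its SE (vertical axis) of the 7 genes (horizontal axis) in 4 comparisons of groups, shown by the shape and colour of the points, with dotted lines at 2-fold in each direction. With LPS, Thbs1 was at 1.45 without JSH-23 and at 0.08 with it, Plau changed side, and F10 stood near 1 in both. Serpinb2 with LPS and every value of WTL + JSH23 against WTL are descriptions, whereas Serpinb2 in WT + JSH23 against WT was tested.

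Counted over the 6 genes other than Serpinb2, LPS gave 3 genes past the threshold in WTL against WT, F10, Procr and Thbs1, all higher, beside 16.4% of all genes tested in either direction and 7.36% higher. At an adjusted p under 0.05 with no fold threshold 5 of the 6 passed, beside 65.7% of all genes. After JSH-23, 2 of the 6 passed, F3 and Procr, both higher, beside 10.3% of all genes in either direction and 5.85% higher. With no fold threshold 5 of the 6 passed there, all but Thbs1, beside 54.5% of all genes. F10 at 0.96 and Plau at 0.94 on the log2 scale lay just under 2-fold there. The interaction passed for 4 of the 6 at an adjusted p under 0.05, beside 18.0% of all genes. Plau had a higher LPS change with JSH-23, beside 9.54% of all genes, and Plaur, Procr and Thbs1 a lower one, beside 8.44%. With a 2-fold threshold Plau and Thbs1 remained, beside 1.34% of all genes. Of all genes called in the interaction 53.1% were higher, against 43.8% with the size factors of DESeq2 in edgeR and 51.8% with upper quartile scaling. With another tool or unit the share was 41.1% by DESeq2 and 79.5% by limma on log2(TPM + 1).

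WTL + JSH23 against WTL, the contrast that chose Serpinb2, is described without a test. The log2 fold changes there were 1.48 for Plau (SE 0.103), 1.19 for Procr (SE 0.0715) and 0.27 for Thbs1 (SE 0.0530). They were -1.34 for F3 (SE 0.359), -0.15 for F10 (SE 0.0398) and -0.10 for Plaur (SE 0.0476), the last with its sign turned to 0.029 in limma on log2(TPM + 1). This comparison shares the WTL libraries with that of WTL against WT and the WTL + JSH23 libraries with that of WTL + JSH23 against WT + JSH23.

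The other genes of these pathways were taken from lists of 65 genes, of which 37 passed the filter on low counts and 14 were at 0 in all 12 libraries. A count of 0 allows up to 3 counts, or 0.0861 to 0.122 CPM depending on the library, for counting error only. This range divides by the plain total of each library, without the scaling of the other CPM values. Plasminogen (Plg), the fibrinogen chains (Fga, Fgb, Fgg) and protein C (Proc) were among those at 0, so no RNA was counted for the precursor of plasmin or for fibrinogen. Of the 37 genes, 7 were called higher and 2 lower with LPS, beside 16.4% of all genes in either direction, with a median log2 fold change of -0.05 beside -0.05 over all genes tested. After JSH-23, LPS gave 3 higher and 3 lower, beside 10.3% of all genes, with a median of -0.05 beside -0.02. The 3 lower, Thbd, Thbs3 and Serpinb12, are named for their low levels, with means of at most 1.06 CPM in every group. JSH-23 in resting cells gave 1 call, F2rl1, lower, beside 5.37% of all genes, with a median of 0.06 beside -0.01. F2rl1, the protease-activated receptor PAR2, was named after its values were seen. It was low, at 1.12 CPM in WT and 0.313 CPM in WT + JSH23, with 6 counts in its lowest library. The interaction passed for 2 genes higher and 7 lower, beside 18.0% of all genes, with a median of -0.09 beside 0.03.

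Among the 7 other fibrinolysis genes tested, Plat was called higher with LPS and Lrp1 lower. Plat, the tissue-type activator, went from 8.11 ± 0.799 to 124.7 ± 5.40 CPM (SD, n = 3), a log2 rise of 3.95 (SE 0.0655, adjusted p = 1.67e-21). After JSH-23 its log2 rise with LPS was 3.17 (SE 0.0638, adjusted p = 7.39e-20). The interaction of Plat was -0.78 (SE 0.0967, adjusted p = 1.04e-05), so its RNA rose less after JSH-23. Anxa2, a subunit of a plasminogen receptor, had an interaction of -0.26 (SE 0.0530, adjusted p = 0.00158), which did not pass in limma on log2(TPM + 1), at -0.12 (adjusted p = 0.0929). Lrp1, the receptor that clears protease-serpin complexes, fell by 1.27 on the log2 scale with LPS (SE 0.0540, adjusted p = 1.02e-14), from 281 ± 4.73 to 116.7 ± 5.73 CPM (SD, n = 3), and its interaction was 0.39 (SE 0.0758, adjusted p = 0.00117).

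**Figure D4:**
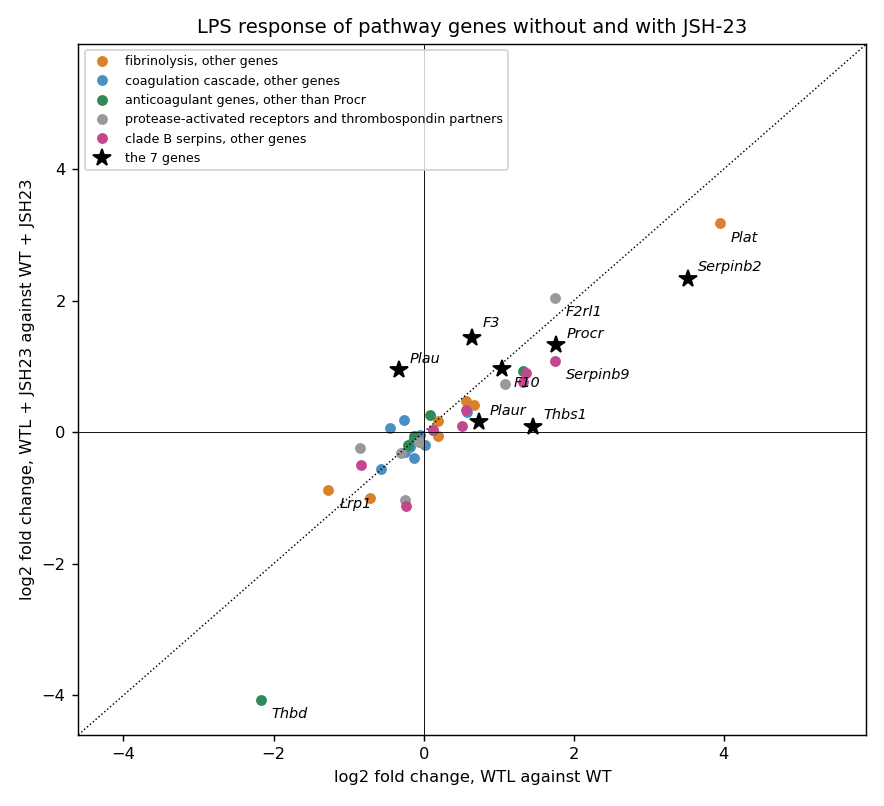
Log2 fold change with LPS without JSH-23 (horizontal axis) and with it (vertical axis) for the 7 genes (stars) and the 37 other pathway genes tested (circles, coloured by list), with a dotted line where both are equal. Plat and Serpinb2 lie at the upper right below the line, Plau above it and Thbs1 far below it. The lowest point is Thbd, which had 0 to 20 counts per library.

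Of the 11 coagulation cascade genes tested, 6 passed at an adjusted p under 0.05 with LPS alone and 5 with LPS after JSH-23, each with a change under 2-fold, beside 65.7% and 54.5% of all genes at that threshold. F7, the partner of tissue factor and named here after its values were seen, stood at 92.8 TPM in WT, 66.5 in WTL, 69.3 in WT + JSH23 and 54.8 in WTL + JSH23. Each level of F7 was far above that of F3, which was 0.837, 1.01, 0.177 and 0.43 TPM in the same order, and below that of F10. Vwf, von Willebrand factor, stood at 60.9 ± 1.34 CPM in WT and 50.9 ± 1.26 CPM in WTL, against 106 ± 4.72 CPM in WT + JSH23 and 120.9 ± 15.8 CPM in WTL + JSH23 (SD, n = 3). Its interaction was 0.45 (SE 0.0923, adjusted p = 0.00167).

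Of the 5 anticoagulant genes tested, Serpinc1 (antithrombin) rose with LPS by 1.32 on the log2 scale (SE 0.116, adjusted p = 2.00e-09), to 10.6 ± 0.947 CPM in WTL (SD, n = 3). Thbd (thrombomodulin), the cofactor that works beside Procr, had at most 20 counts in a library, and its call with LPS, lower, rests on levels near the floor. Of the 6 receptors and thrombospondin partners tested, Thbs4 rose with LPS by 1.08 (SE 0.104, adjusted p = 8.70e-09), to 7.63 ± 0.346 CPM in WTL (SD, n = 3), and F2rl1 was also called higher. Of the 8 clade B serpins tested, the family of Serpinb2, 3 were called higher with LPS, beside 7.36% of all genes, and 4 had a lower LPS change after JSH-23, beside 8.44%. Serpinb9, the inhibitor of granzyme B, rose by 1.75 (SE 0.0455, adjusted p = 2.57e-18) without JSH-23 and by 1.08 (SE 0.0447, adjusted p = 1.28e-14) with it, and its interaction was -0.67 (SE 0.0627, adjusted p = 3.13e-07). Serpinb6b had an interaction of -0.57 (SE 0.0693, adjusted p = 8.51e-06). Serpinb9b rose by 1.36 with LPS (SE 0.0490, adjusted p = 5.70e-16). Its expected counts and those of Serpinc1 included fractions, from reads divided with other genes.

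Markers of other cell types moved with some of these values. Macrophage markers (8 of 8 with counts, led by Csf1r) summed to 2342 to 2501 CPM in WT, 1839 to 1957 in WTL, 1645 to 1703 in WT + JSH23 and 1332 to 1400.4 in WTL + JSH23. This list was lowest where Procr and Plau were highest, and lower with JSH-23, as Serpinb2 and F3 were. Its part in these results was not tested. Megakaryocyte and platelet markers summed to 106.9 to 116 CPM in WT, 138 to 143 in WTL, 196 to 209 in WT + JSH23 and 203 to 207 in WTL + JSH23. The sum was higher with JSH-23, as Vwf was and as Thbs1 was in resting cells, and its part in these results was not tested. The markers did not move together. Ppbp carried the difference, with means of 30.3 CPM in WT, 31.1 in WTL, 113 in WT + JSH23 and 110.2 in WTL + JSH23, whereas Gp6 was lower with JSH-23, at 6.53, 8.52, 2.83 and 4.08 CPM in the same order. Pf4 and Ppbp held most of the sum, and the defining genes Gp9 and Gp1bb had at most 10 counts in every library.

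Endothelial markers, relevant to Procr and Vwf, summed to 69.7 to 73.4 CPM in WT, 108 to 114.7 in WTL, 23.2 to 27.4 in WT + JSH23 and 20.4 to 23.8 in WTL + JSH23. Nearly all of this was Kdr, whereas Tek, Emcn, Egfl7 and Cldn5, 4 of the 8 markers, had at most 10 counts in every library. Procr was highest in the group where this sum was lowest. Cdh5, the only other endothelial marker that passed the filter on low counts, went the other way and was highest in WTL + JSH23, as Procr was, with means of 0.519 CPM in WT, 0.531 in WTL, 0.951 in WT + JSH23 and 1.33 in WTL + JSH23. The part of these cells in the result was not tested. Fibroblast markers, relevant to Thbs1, summed to 4.13 to 4.97 CPM in WT, 33.6 to 34.3 in WTL, 3.34 to 4.03 in WT + JSH23 and 13.4 to 15.6 in WTL + JSH23, most of it Pdgfrb with LPS, and their part in the LPS change of Thbs1 was not tested. Col3a1 was at 0 in all libraries and Col1a1, Col1a2, Dcn and Lum had at most 10 counts. Neutrophil markers summed to 30.2 to 47.6 CPM over all libraries, led by S100a9, with Ly6g, Elane and Cxcr2 at 10 counts or fewer. Mast cell and basophil markers summed to 1.17 to 2.36 CPM, led by Gata2, with Tpsb2, Cma1 and Mcpt4 at 0. Markers of B, T and NK cells summed to 0.248 to 1.20 CPM, led by Cd3d.

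Genes with the most similar profile over the 12 libraries were named by the root mean square difference of log2(CPM + 0.5), each gene centred on its mean, among 9453 other protein-coding genes with at least 5 CPM in their highest group. F10 was closest to Clic4 (0.0503), Sod2 (0.0545) and Vezf1 (0.0622). Plaur was closest to Nus1 (0.0845), Azin1 (0.0886) and Tob1 (0.0946), and Procr to Layn (0.0999), Rps6ka2 (0.158) and Plk2 (0.193). The closest profiles lay further off for the other genes. Thbs1 was closest to Hspa1b (0.199), Sh2b2 (0.209) and Plk3 (0.240), and Plau to Cep78 (0.233), Aars (0.241) and Nars (0.253). Serpinb2 was nearest to Hs3st3b1 (0.485), Il27 (0.521) and Trem1 (0.575), the largest distances listed here. The measure is not scaled by the size of a gene's changes, and Serpinb2 had the largest fold between group means. Its distances therefore cannot show whether similar profiles were lacking. Each of these neighbours had its order of group means, as Hs3st3b1 with 33.4 CPM in WTL, 9.08 in WTL + JSH23, 3.20 in WT and 1.95 in WT + JSH23. F3 was nearest to Nabp1 (0.203), Gm4070 (0.212) and Ifih1 (0.213), but the added 0.5 CPM exceeds its level in some libraries and flattens its profile.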

How the data were processed

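RNA-seq of 12 mouse BMDC libraries was analysed, 3 in each of 4 groups taken from the sample titles. The authors trimmed reads with Trim Galore, aligned them to mm10 with STAR (2.6.0c per the submitters' processing notes) and quantified genes with RSEM. The deposited expected counts are estimated read pairs per gene, not normalized between libraries. The deposited TPM values were scaled by the authors for transcript length and library total. The labels name rRNA depletion and the methods a stranded poly-A kit, so the use of strand was not settled. Of 55335 gene identifiers 55154 matched GENCODE M21 without the version suffix.

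Expected counts were rounded, filtered with filterByExpr (14357 genes, 99.94% to 99.95% of each library's counts), scaled by TMM (factors 0.859 to 1.12) and fitted with the quasi-likelihood F-test of edgeR 4.0.16 in R 4.3.3 over all 12 libraries, with 1 mean per group and 8 residual degrees of freedom. All tests were two-sided, with Benjamini-Hochberg adjustment over every gene tested. A call needed an adjusted p under 0.05 and more than 2-fold. The interaction, the change with LPS after JSH-23 less the change without it, needed only the former. The SE is the absolute log2 fold change divided by the square root of F. The fit was tested on simulated data. The model differs from that of the study, which used DESeq2. DESeq2 1.42.0 and limma 3.58.1 served as alternatives, the latter on log2 of TPM with a pseudocount of 1, which understates changes of low genes.

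The members, gene lists and tests were chosen with earlier results of these data known. Besides the 7 genes, at most 2 genes per direction were named in each list and comparison, those with the largest log2 fold change among genes called with at least 5 CPM in the higher group. Other genes named are said to be chosen after their values were seen or have a stated reason. One gene of the fibrinolysis list is not reported here. Of the marker lists, the most abundant gene and those at or near 0 are named. Alternatives were other scalings, filters, tools and fold thresholds, fits of only the groups compared, a replicate block and leaving out each library.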

Additional observations from a re-analysis of the deposited data

Results flagged for a closer look

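The LPS response with JSH-23 differed from that without it by the interaction of edgeR's quasi-likelihood test, each adjusted over all genes tested, for 4 of the 6 genes tested, beside 18.0% of all genes. Serpinb2 was not tested here. The interaction on the log2 scale was 1.27 for Plau and -0.58 for Plaur. It was -0.43 for Procr and -1.37 for Thbs1. Among the other pathway genes it was 0.39 for Lrp1, -0.78 for Plat, -0.26 for Anxa2 and 0.45 for Vwf. Of the clade B serpins 4 passed, all lower, and the interaction was -0.57 for Serpinb6b, -0.67 for Serpinb9 and -0.47 for Serpinb9b. Among the 37 other pathway genes tested 2 passed higher and 7 lower, and only those named earlier are given here.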

How the results depend on the processing

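The number of genes past the threshold was counted without Serpinb2 in the LPS comparisons. For WTL against WT it was 3 of 6, and 5 with no fold threshold. It was 2 with upper quartile scaling and 2 in limma on log2(TPM + 1), where F10 fell under 2-fold. For WTL + JSH23 against WT + JSH23 it was 2, but 1 with a minimum mean of 1 CPM (F3 is then not tested), 1 in limma on log2(TPM + 1), 5 with no fold threshold and 1 to 3 when 1 library was left out. It was 1 without WTL + JSH23 replicate 3. For the interaction it was 4 of 6, and 2 with a 2-fold threshold added. Directions turned for Plaur with LPS after JSH-23 in limma on log2(TPM + 1) (-0.064), for Thbs1 with upper quartile scaling (-0.00157) and in limma (-0.13), and for the interaction of F10 in limma (0.044). The cause was not tested. Each of these turned values missed the threshold.

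Over all genes, 2361 were called in WTL against WT, 1484 in WTL + JSH23 against WT + JSH23, 771 in WT + JSH23 against WT and 1005 in WTL + JSH23 against WTL. Without a fold threshold these were 9437, 7828, 5881 and 6994, and in limma on log2(TPM + 1) 1345, 613, 318 and 404. A minimum mean of 1 CPM left 511 in WT + JSH23 against WT. In the interaction 2582 were called, and 192 with a 2-fold threshold. Of the calls with LPS alone 44.7% were higher, against 30.0% in limma on log2(TPM + 1). Whether library numbers 1 to 6 pair LPS with control libraries was not settled, and the main fit held no block for them. Between libraries of the same number, the correlations of deviations from the group means were 0.0142 to 0.0614 over 14357 genes. Of the 12 libraries, 10 correlated best with their own number among libraries alike in JSH-23 and unlike in LPS. With the replicate block the counts of members were 3, 2 and 4, the counts over all genes 2359, 1484 and 2968, and Thbs1 with LPS after JSH-23 passed (log2 0.087, adjusted p = 0.0395). Depth limits F3 most, with 1 to 40 counts per library.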
